A study of Homo sapiens with 16 samples.

Results

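WDR5 and 9 genes that encode its partners in the SET1 and MLL complexes were followed at the mRNA level in H1299 cells after knockdown (KD) of YEATS2. They are WDR5, RBBP5, ASH2L, DPY30, SETD1A, SETD1B, MEN1, CXXC1, HCFC1 and WDR82, found by symbol in a table of RNA-seq read counts, and all 10 are among its 12676 genes. WDR5 was picked because its count was low in the KD libraries in an earlier analysis of this same contrast, and the partners were added to it, so the values of these 10 genes in that contrast are given as a description, and the calls counted among them support nothing. H1299 cells are a line from a human non-small cell lung carcinoma. Control cells (shCtrl) carried a pLKO vector with a non-targeting shRNA and YEATS2 KD cells (shYEATS2) a pLKO vector with an shRNA against YEATS2, with 2 libraries of each. Cells of both groups were exposed to lentivirus with polybrene at 8 µg/ml and, after 48 h, selected with puromycin at 2 µg/ml for 4 to 7 days according to the sample labels, while the paper's methods give a shorter selection. The labels do not say which YEATS2 shRNA was used, whereas the paper's text names shY2-1 for its duplicate RNA-seq and describes a separate RNA-seq with another shRNA. Both groups are selected populations of 1 cell line, and no parental cells without a vector are among the RNA-seq samples. The ChIP-seq samples of the series were not analysed here.

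The SET1 and MLL complexes place methyl groups on lysine 4 of histone H3 (H3K4), a mark that is found at promoters when it carries 3 methyl groups and at enhancers when it carries 1. Each complex holds a SET domain enzyme bound to the same small core of WDR5, RBBP5, ASH2L and DPY30, without which the enzyme works poorly, and further subunits that guide the complex to chromatin. WDR5 also sits in other chromatin assemblies, among them the NSL complex and the ATAC histone acetyltransferase complex, of which YEATS2 is a subunit that reads acetylated histones.

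The libraries held between 34718921 and 39417787 reads in listed genes, and each listed gene has over 100 reads in at least 1 library. Counts of a gene were scaled to a common library size with the TMM factors of edgeR, and these scaled counts are given unless another scale is named. The median standard error (SE) of a log2 fold change was 0.12 over all genes. YEATS2, the targeted gene, had 4483 and 4104 scaled counts in shCtrl and 665 and 673 in shYEATS2 libraries. Its log2 fold change was -2.68 ± 0.10 (SE; FDR 0.000583 by the quasi-likelihood test of edgeR, adjusted after Benjamini and Hochberg), and the groups did not overlap. The keratin genes KRT8 and KRT18 and the RAS gene NRAS were counted in every library. No blood, endothelial or fibroblast marker that was looked for (PTPRC, CD3E, PECAM1, CDH5, DCN and LUM) is in the table.

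WDR5 showed the largest difference of the 10 genes, followed by WDR82 and CXXC1, whereas RBBP5 and ASH2L lay at or slightly above their control level. Counted for description only, as the choice of the genes used this contrast, 2 of the 10 genes, WDR5 and WDR82, were among those called lower at FDR 0.01 over all genes (edgeR), and none was among those called higher. Over all genes 12.5% were called lower and 12.9% higher. On the TMM scale, in 8 of the 10 genes both KD libraries lay below both control libraries, and in none did both lie above. The shares of all genes were 39.8% and 39.7%. With scaling by total counts the log2 fold changes of all 10 genes were higher, though 8 stayed below 0. They were then -2.17 for WDR5, -0.86 for WDR82, -0.0053 for SETD1A and 0.18 for ASH2L. The median log2 fold change of the 10 genes was -0.26, from -2.29 for WDR5 to 0.07 for ASH2L, and that of all genes was -0.0019. Without WDR5 the median of the other 9 genes was -0.23. In bulk RNA a lower count per cell and a smaller number of cells that hold the mRNA cannot be told apart.

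**Figure D1:**
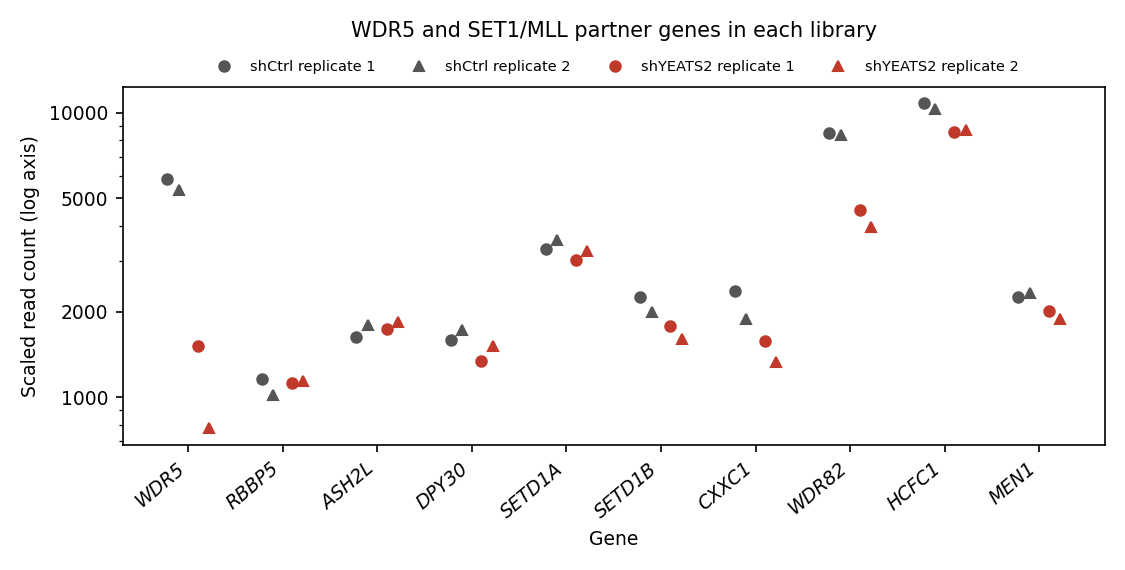
TMM-scaled read counts (log axis) of WDR5 and 9 partner genes in each of 4 RNA-seq libraries. Grey marks are shCtrl and red marks are shYEATS2 libraries, with circles for replicate 1 and triangles for replicate 2. WDR5 falls from 5873 and 5367 to 1518 and 777, WDR82 from 8468 and 8324 to 4534 and 3964, and the RBBP5 and ASH2L marks of the groups overlap.

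WDR5 is a small WD40-repeat protein that docks the enzyme and RBBP5 and binds the tail of histone H3. The gene (ENSG00000196363) is protein coding and lies at chr9:137000487-137025090 on the plus strand of GRCh37 (hg19), the build to which the authors mapped. It had 5873 and 5367 scaled counts in shCtrl replicates 1 and 2, and 1518 and 777 in shYEATS2 replicates 1 and 2. Both KD libraries were far below both controls. The means were 5620 ± 358 and 1148 ± 524 (SD, n = 2 in each group), so KD cells held 20.4% of the control level. The log2 fold change was -2.29 ± 0.28 (SE), and 11 of the 12676 genes had a lower value. The KD libraries differed from each other, with 27% of the control mean in replicate 1 and 13.8% in replicate 2. This 1.95-fold gap was exceeded by 0.931% of all genes in the same pair of libraries, while the YEATS2 counts of that pair were nearly equal. With shYEATS2 replicate 1 left out the log2 fold change was -2.85, and with replicate 2 left out it was -1.89.

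WDR5B is a paralog of WDR5 that could share reads with it. It is expressed weakly, with 233 and 219 scaled counts in shCtrl and 268 and 191 in shYEATS2 libraries, and the groups overlapped. Its log2 fold change was 0.02 ± 0.20 (SE; FDR 0.948, edgeR). The longest stretch that is identical in the longest coding transcripts of both genes is 30 bases.

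RBBP5 is the WD40 protein that bridges WDR5 and ASH2L and helps to activate the enzyme. Its gene lies at chr1:205055270-205091143 (minus strand, hg19). It had 1160 and 1019 scaled counts in shCtrl and 1117 and 1144 in shYEATS2 libraries. The groups overlapped, and the log2 fold change was 0.05 ± 0.11 (SE). ASH2L, which forms with RBBP5 the unit that stimulates methylation, had 1630 and 1787 scaled counts in shCtrl and 1743 and 1833 in shYEATS2 libraries. These also overlapped, with a log2 fold change of 0.07 ± 0.10 (SE). DPY30, a small protein that binds ASH2L as a dimer, is encoded at chr2:32092878-32264874 (minus strand, hg19). It had 1585 and 1723 scaled counts in shCtrl and 1344 and 1510 in shYEATS2 libraries. The KD libraries lay just below the controls on the TMM scale, by a log2 fold change of -0.21 ± 0.11 (SE). In 39.8% of all genes both KD libraries lay below both controls. RBBP5 and ASH2L changed sign when 1 control library was left out, with a lowest value of -0.04 for RBBP5 without shCtrl replicate 2 and of -0.0035 for ASH2L without shCtrl replicate 1.

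WDR5 was also set against the other 3 core genes within each library, with levels compared per length as RPKM. These are reads per length of the longest coding transcript and per TMM library size. The WDR5 level was 7.00 and 7.29 times that of RBBP5 in the shCtrl libraries and 1.88 and 0.940 times in the shYEATS2 libraries. It was 3.33 and 2.78 times that of ASH2L in shCtrl and 0.805 and 0.392 times in shYEATS2 libraries. Relative to DPY30 it was 0.808 and 0.679 in shCtrl and 0.246 and 0.112 in shYEATS2 libraries. In all 3 ratios both KD libraries lay below both controls, and replicate 2 was the lower KD library. All 3 share WDR5, which was picked for its low KD counts, so their fall is a description only. The core proteins sit together in the complexes, but these are mRNA ratios and proteins were not measured in these files.

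SETD1A and SETD1B are the catalytic SET domain enzymes of the SET1 complexes. SETD1A (chr16:30968615-30995985, plus strand, hg19) had 3313 and 3560 scaled counts in shCtrl and 3048 and 3256 in shYEATS2 libraries, with a log2 fold change of -0.12 ± 0.10 (SE). Its exons overlap those of an unnamed annotated gene, ENSG00000279196, and the library kit is not one that keeps the strand. SETD1B (chr12:122241915-122270562, plus strand, hg19) had 2258 and 1988 scaled counts in shCtrl and 1783 and 1605 in shYEATS2 libraries, with a log2 fold change of -0.33 ± 0.11 (SE). In both genes the KD libraries lay below the controls without overlap on the TMM scale, as in 39.8% of all genes. With scaling by total counts the log2 fold change was -0.0053 for SETD1A and -0.21 for SETD1B.

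CXXC1 (CFP1), WDR82, HCFC1 and MEN1 encode subunits that are not part of the core. CXXC1 binds unmethylated CpG sites and brings SET1 complexes to CpG islands. Its gene (chr18:47808713-47814209, minus strand, hg19) had 2363 and 1884 scaled counts in shCtrl and 1582 and 1334 in shYEATS2 libraries. KD cells held 68.7% of the control level, a log2 fold change of -0.54 ± 0.14 (SE). Its value was -0.37 without shCtrl replicate 1 and -0.70 without shCtrl replicate 2, as the control libraries differed 1.25-fold.

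WDR82 ties SETD1A and SETD1B to the phosphorylated tail of RNA polymerase II and is also a subunit of the PTW/PP1 phosphatase complex. The gene (ENSG00000164091, chr3:52288450-52322036, minus strand, hg19) had 8468 and 8324 scaled counts in shCtrl and 4534 and 3964 in shYEATS2 libraries. The means were 8396 ± 102 and 4249 ± 403 (SD, n = 2 in each group), and KD cells held 50.6% of the control level. The log2 fold change was -0.98 ± 0.10 (SE), and 661 genes had a lower value. Leaving out any 1 library gave values from -1.08 to -0.89. The WDR5 level per length was 0.942 and 0.875 times the WDR82 level in shCtrl and 0.455 and 0.266 times in shYEATS2 libraries.

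HCFC1, a large scaffold protein that binds WDR5 and transcription factors, had 10823 and 10282 scaled counts in shCtrl and 8534 and 8675 in shYEATS2 libraries. The gene lies at chrX:153213008-153237269 (minus strand, hg19), and its log2 fold change was -0.29 ± 0.09 (SE). MEN1 encodes menin, which recruits the MLL1 and MLL2 enzymes, and lies at chr11:64570982-64578766 (minus strand, hg19). It had 2258 and 2326 scaled counts in shCtrl and 2014 and 1885 in shYEATS2 libraries, with a log2 fold change of -0.23 ± 0.09 (SE). On the TMM scale the KD libraries of both genes lay below the controls without overlap, as in 39.8% of all genes. With scaling by total counts the log2 fold change was -0.17 for HCFC1 and -0.11 for MEN1. For HCFC1 the KD level was 81.5% of the control level and for MEN1 it was 85.1%.

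The order of the 10 genes per length places WDR5 among its partners. In shCtrl libraries DPY30 was highest with 66.0 ± 3.89 RPKM (SD, n = 2), followed by WDR82 with 53.8 and WDR5 with 48.9 ± 3.11. HCFC1 came next with 32.6, then CXXC1 with 24.1, MEN1 with 19.9, ASH2L with 16.1 and SETD1A with 14.6 RPKM. RBBP5 with 6.85 and SETD1B with 6.81 RPKM were lowest, and they were the only neighbours in this order whose libraries overlapped. In shYEATS2 libraries WDR5 was the eighth with 9.98 ± 4.56 RPKM, and its 2 libraries overlapped those of SETD1A above it and of RBBP5 below it. DPY30 remained highest with 56.9 RPKM, and WDR82 with 27.2 could not be separated from HCFC1 with 26.6. MEN1 with 17.0, ASH2L with 16.8 and CXXC1 with 16.5 RPKM each overlapped their neighbour in the order. The lowest was SETD1B with 5.43 RPKM, below RBBP5 with 7.11 without overlap.

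**Figure D2:**
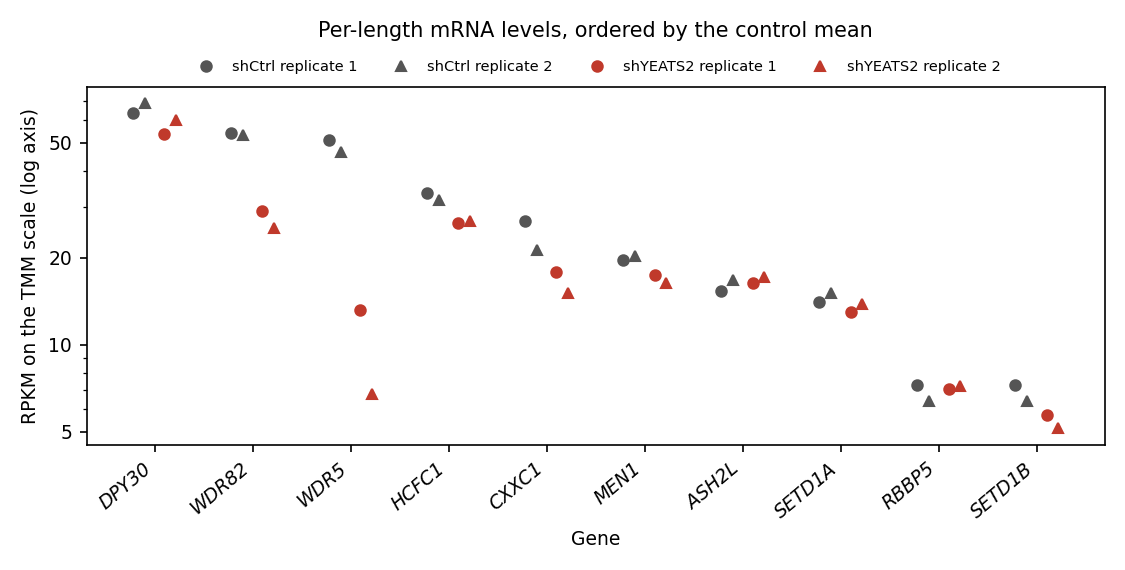
mRNA levels per length (RPKM on the TMM scale, log axis) of the 10 genes, ordered from left to right by the control mean. Grey marks are shCtrl and red marks are shYEATS2 libraries, with circles for replicate 1 and triangles for replicate 2. WDR5 is the third highest in the controls at 48.9 RPKM and lies at 13.2 and 6.76 RPKM in the KD libraries, near SETD1A and RBBP5.

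The transcripts were searched for the word AAGTTCA, which an earlier analysis of the same libraries had tied to lower levels in the KD when it lies in a 3′ UTR. That link came from the contrast described here, so the copies are shown only to locate them. The longest coding transcript of WDR5 carries 3 copies, of which 2 lie in the coding sequence and 1 in the 3′ UTR. SETD1B also carries 3, with 2 in the coding sequence and 1 in the 3′ UTR, WDR82 carries 1 in the coding sequence and HCFC1 1 in the 3′ UTR. No copy is in RBBP5, ASH2L, DPY30, SETD1A, MEN1 or CXXC1, nor in WDR5B, and the YEATS2 transcript holds 1 outside its 3′ UTR. Of 11426 genes with a coding transcript 29.9% carry the word and 1.99% carry at least 3 copies, and of 11390 genes with a 3′ UTR 15.2% carry it there. The sites of WDR5 and WDR82 are shown because these 2 genes had the largest differences of the 10. SETD1B has as many copies as WDR5 and a log2 fold change of -0.33, and only its 3′ UTR site is shown. The coding sites of SETD1B and the site of HCFC1 are left out. Each is read 5′ to 3′ on the mRNA strand with 10 bases on either side, and capitals mark the word.
WDR5 coding, chr9:137005855-137005861: ctatgctctaAAGTTCAcccttgctgg
WDR5 coding, chr9:137005926-137005932: agtggctggcAAGTTCAtctgctgata
WDR5 3′ UTR, chr9:137023410-137023416: cagaagggtgAAGTTCAatttaacatg
WDR82 coding, chr3:52292581-52292587: attcaaccccAAGTTCAtgacttttgc
SETD1B 3′ UTR, chr12:122269412-122269418: aaggtttttgAAGTTCAgaaccaactt

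Promoters of WDR5 and WDR82 are shown for the same reason. RefSeq sequences from 250 bases before to 50 bases after a start (GRCh38.p14) were at hand for 6 of the 10 genes, namely WDR5, RBBP5, WDR82, MEN1, SETD1A and CXXC1, and WDR5 has several such entries. In the one printed, the bases that follow the start are found near the beginning of the longest coding transcript, so the 2 starts lie close but may differ. Both strands were searched for the letters GGGCGG (the GC box of SP-type factors), CCAAT (the CCAAT box), CACGTG (an E-box), TGACGTCA (the cAMP response element), ATGGCGG (YY1-type) and CCGGAAG (ETS-type), and for the NRF1-type motif, which is GCGC repeated after any 2 bases. Capitals mark the matches on either strand.
WDR5, chr9:134135832-134136131, plus strand: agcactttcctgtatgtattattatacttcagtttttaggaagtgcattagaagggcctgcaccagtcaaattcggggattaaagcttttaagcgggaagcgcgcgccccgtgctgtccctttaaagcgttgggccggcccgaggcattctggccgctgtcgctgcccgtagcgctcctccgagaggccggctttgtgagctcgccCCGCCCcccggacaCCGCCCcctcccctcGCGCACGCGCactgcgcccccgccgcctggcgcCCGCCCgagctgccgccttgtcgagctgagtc
WDR82, chr3:52278600-52278899, minus strand: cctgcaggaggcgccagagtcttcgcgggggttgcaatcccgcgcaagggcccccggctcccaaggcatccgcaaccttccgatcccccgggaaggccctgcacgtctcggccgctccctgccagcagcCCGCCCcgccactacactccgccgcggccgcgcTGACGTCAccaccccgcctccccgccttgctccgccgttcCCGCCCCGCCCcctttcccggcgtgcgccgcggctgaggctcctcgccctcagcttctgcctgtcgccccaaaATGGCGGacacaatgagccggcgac
Both windows hold 3 GC boxes, a pair of which overlap each other in WDR82. In addition the printed WDR5 window has 1 NRF1-type match, and that of WDR82 has 1 TGACGTCA and 1 ATGGCGG match. The other WDR5 entries hold no NRF1-type match. In order of position they hold 1 CCAAT and 1 CCGGAAG match, then 1 GC box, then 5 GC boxes and 1 CACGTG match. Among 35116 RefSeq promoters of this length, 45.0% hold GGGCGG, 8.32% the NRF1-type motif, 1.85% TGACGTCA and 5.55% ATGGCGG. The other members with an entry differ in this as well. SETD1A holds 4 GC boxes, CXXC1 holds 1 ATGGCGG match, and RBBP5 holds no match to these letters. Of the MEN1 entries, one holds 2 GC boxes and 1 CCAAT match and the other 1 CCAAT match. These matches describe the sequence only, as no binding was measured at them here.

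The genes whose pattern over the 4 libraries was most like that of WDR5 were found by Euclidean distance of centred log2 scaled counts, with low genes (mean scaled count under 100) set aside. They were GPR19 (distance 0.243), RIBC2 (0.289), SLC16A10 (0.291), RECQL (0.293) and TMCC3 (0.310). Their log2 fold changes were -2.10, -2.53, -2.18, -2.59 and -2.30 in the same order, and their likeness to WDR5 in these libraries, replicate order included, is what they were chosen by. RECQL, a DNA helicase gene, is the only one of these with counts as high as those of WDR5, with 6360 and 6189 in shCtrl and 1352 and 742 in shYEATS2 libraries.

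Among the remaining subunits of the SET1 and MLL complexes, the enzymes KMT2C and KMT2D and the demethylase KDM6A were higher and PAXIP1, PAGR1 and BOD1 were lower. Of 12 tested genes 3 were called higher, 3 lower and 6 were not called, against the shares of 12.9% and 12.5% over all genes. The 12 include TASP1, a protease that acts on MLL1, and their median log2 fold change was -0.01. KMT2B was not analysed here. KMT2C (MLL3) and KMT2D (MLL4), the enzymes that place a single methyl group at enhancers, use the same WDR5-containing core.

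KMT2C had 2222 and 2288 scaled counts in shCtrl and 4064 and 5215 in shYEATS2 libraries. Its log2 fold change was 1.04 ± 0.13 (SE), with FDR 0.00197 in the quasi-likelihood test of edgeR. This test gave all FDR values below unless another is named. KMT2D had 7596 and 6633 in shCtrl and 12295 and 15254 in shYEATS2 libraries, a log2 fold change of 0.95 ± 0.13 (FDR 0.00253). Both rose in both KD libraries, more in replicate 2. KDM6A (UTX), the H3K27 demethylase of these 2 complexes, had 1262 and 1212 in shCtrl and 1741 and 1877 in shYEATS2 libraries. Its log2 fold change was 0.55 ± 0.10 (FDR 0.00525), but the call was lost without any 1 of shCtrl replicate 1, shCtrl replicate 2 or shYEATS2 replicate 2 (FDR 0.0270, 0.0359 and 0.0138).

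PAGR1 (PA1) and PAXIP1 (PTIP) form a pair of subunits found in the same KMT2C and KMT2D complexes, and both were lower. PAGR1 had 300.2 and 318 scaled counts in shCtrl and 166 and 164 in shYEATS2 libraries, a log2 fold change of -0.91 ± 0.15 (FDR 0.00444). PAXIP1 had 1856 and 2012 in shCtrl and 1435 and 1391 in shYEATS2 libraries, a log2 fold change of -0.45 ± 0.10 (FDR 0.00960). Of the genes named here for the KMT2C and KMT2D complexes, 3 were called higher and 2 lower, against 12.9% and 12.5% of all genes. Their further subunit NCOA6 had a log2 fold change of 0.35 (FDR 0.0241) and was called higher only with total-count scaling (FDR 0.00726). The PAGR1 call was lost without either control library or without shYEATS2 replicate 2 (FDR 0.0190, 0.0276 and 0.0122), and the PAXIP1 call without any 1 library (FDR from 0.0136 to 0.0805), with total-count scaling (FDR 0.0279) and with genes of a mean count under 100 left out (FDR 0.0104).

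BOD1, a subunit tied to SETD1B, had 3046 and 2939 scaled counts in shCtrl and 2265 and 1986 in shYEATS2 libraries. Its log2 fold change was -0.49 ± 0.10 (FDR 0.00942), and the call was lost without either control library or shYEATS2 replicate 2 (FDR 0.0481, 0.0328 and 0.0269) and with total-count scaling (FDR 0.0213). The related BOD1L1 had a log2 fold change of -0.04 (FDR 0.776). KMT2A (MLL1), the enzyme that works with menin, had 8073 and 8715 in shCtrl and 7836 and 8568 in shYEATS2 libraries, and the groups overlapped (log2 fold change -0.03, FDR 0.797). PSIP1 (LEDGF), which tethers menin and MLL1 to chromatin, had a log2 fold change of -0.43 (FDR 0.0208). It was called lower by DESeq2 (FDR 0.00457), by exactTest (FDR 0.00447) and with a replicate block added (FDR 0.00779). TASP1, the protease that cleaves MLL1, had a log2 fold change of 0.01 (FDR 0.957). HCFC2, the paralog of HCFC1, had a log2 fold change of 0.43 (FDR 0.0397).

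**Figure D3:**
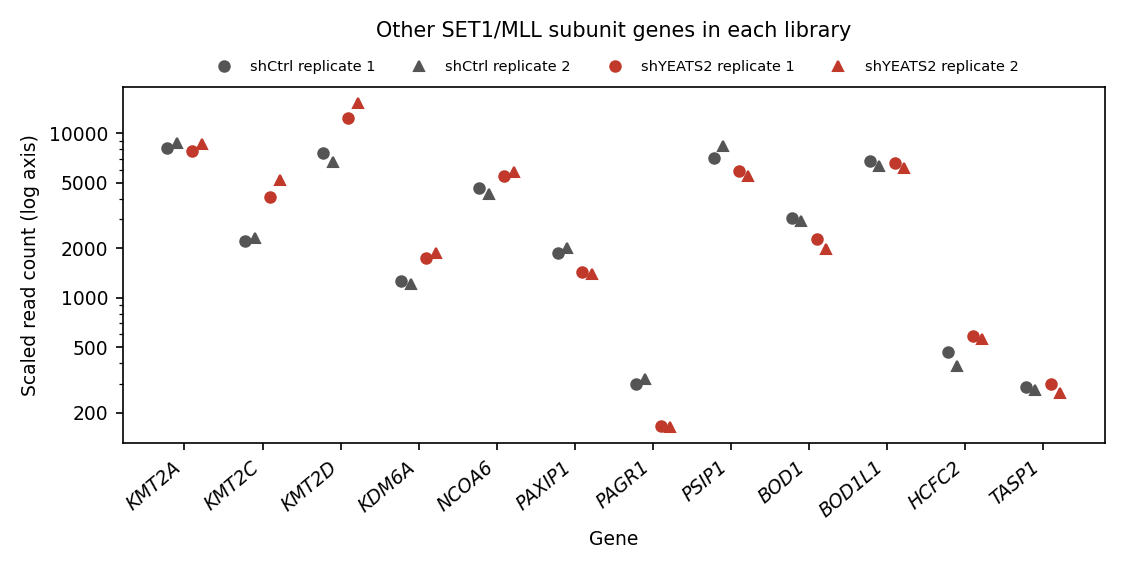
TMM-scaled read counts (log axis) in each library of 12 further genes of the SET1 and MLL complexes, with the protease TASP1 included. Grey marks are shCtrl and red marks are shYEATS2 libraries, with circles for replicate 1 and triangles for replicate 2. KMT2C, KMT2D and KDM6A are higher in both KD libraries, PAXIP1, PAGR1 and BOD1 are lower, and KMT2A, BOD1L1 and TASP1 overlap.

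WDR5 is also counted among the subunits of ATAC, so the genes of that complex were set beside it. Of its 12 other genes 3, with YEATS2 among them, were called lower, 1 higher and 8 were not called. Without YEATS2, 2 of the 11 others were called lower and 1 higher, against 12.5% and 12.9% of all genes, and their median was -0.0021. KAT2A (GCN5), one of the alternative acetyltransferases of the complex, had 3269 and 3103 scaled counts in shCtrl and 1926 and 1194 in shYEATS2 libraries. Its log2 fold change was -1.03 ± 0.21 (FDR 0.00792), and as for WDR5 the lower KD library was replicate 2. The call was lost without shCtrl replicate 1 (FDR 0.0115) and with total-count scaling (FDR 0.0103).

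KAT2B (PCAF), the other acetyltransferase, moved the opposite way, from 1479 and 1398 in shCtrl to 2019 and 2093 in shYEATS2 libraries (log2 fold change 0.51 ± 0.09, FDR 0.00563). DR1, a histone-fold protein, had 5323 and 5106 in shCtrl and 3746 and 3391 in shYEATS2 libraries (-0.55 ± 0.10, FDR 0.00532). Both calls were lost without either control library or shYEATS2 replicate 2, with FDR values from 0.0135 to 0.0427, and that of DR1 also with total-count scaling (FDR 0.0104). The log2 fold changes of the 8 genes that were not called were 0.22 for ZZZ3, 0.07 for TADA2A, -0.0021 for TADA3, 0.01 for SGF29, -0.41 for MBIP, -0.24 for KAT14, -0.29 for POLE3 and 0.26 for POLE4. Only mRNA was measured in these libraries. The paper reports that ATAC components stayed stable after YEATS2 KD, but its text does not list which ones, and whether WDR5 was among them is not said.

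The NSL complex is another assembly that contains WDR5. Of its 7 other genes none was called in either direction, with a median log2 fold change of 0.34. At an unadjusted p under 0.05 (quasi-likelihood test) 4 of the 7 passed, where 56.5% of all genes did. DESeq2 called 2 of the 7 higher and exactTest 3, against 17.0% and 20.5% of all genes. The PTW/PP1 complex contains WDR82, and of its 5 other genes, a targeting subunit, a DNA-binding subunit and the PP1 catalytic subunits, none was called. All 5 values were below 0 on each scaling tried, from -0.29 to -0.17 on the TMM scale with a median of -0.27. At an unadjusted p under 0.05 there were 3, against the same 56.5% of all genes, and neither DESeq2 nor exactTest called any.

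Genes that act before or after the H3K4 methyltransferases were examined last. Ubiquitin on histone H2B, placed by RNF20 and RNF40 with the help of the PAF1 complex, stimulates H3K4 methylation. None of these 11 genes was called, with a median of -0.03, and 5 of the 11 passed an unadjusted p under 0.05, against 56.5% of all genes. DESeq2 called 1 lower and 1 higher, where it called 17.3% and 17.0% of all genes, and exactTest called 2 lower and 1 higher, where it called 19.7% and 20.5%. Of 6 genes for H3K4 demethylases and their cofactor, 1 was called lower and 1 higher, against 12.5% and 12.9% of all genes. Their median was 0.22. DESeq2 and exactTest each called 2 of the 6 lower and 2 higher, against the shares of all genes just given for each. KDM5B, which removes methyl groups from H3K4 with 3 of them, had 1504 and 1663 scaled counts in shCtrl and 2664 and 3552 in shYEATS2 libraries (log2 fold change 0.97 ± 0.15, FDR 0.00340). KDM1A (LSD1), which acts on H3K4 with 1 or 2 methyl groups, had 6747 and 7151 in shCtrl and 5076 and 5096 in shYEATS2 libraries (-0.45 ± 0.09, FDR 0.00791). The KDM1A call was lost without any 1 library (FDR from 0.0120 to 0.0690) and with total-count scaling (FDR 0.0231).

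The 14 genes for proteins that read methylated H3K4 had a median of -0.06. Of these, 1 was called higher and none lower, against 12.9% and 12.5% of all genes. It was ING4, a subunit of an acetyltransferase complex, with 695 and 696 scaled counts in shCtrl and 1341 and 1412 in shYEATS2 libraries (log2 fold change 0.98 ± 0.10, FDR 0.00126). Among 4 tested genes for other H3K4 methyltransferases, none was called lower and 1 higher, against 12.5% and 12.9% of all genes. It was SETD7, which places a single methyl group. SETD7 had 3530 and 3270 in shCtrl and 5473 and 5663 in shYEATS2 libraries (log2 fold change 0.71 ± 0.09, FDR 0.00212), and its call was lost without shCtrl replicate 2 (FDR 0.0129). Over these lists without YEATS2, 70 genes were tested, of which 6 were called lower and 7 higher, with a median of -0.03, against 12.5% and 12.9% of all genes. With scaling by total counts, which raises the median of all genes to 0.12, the calls in the lists were 1 lower and 13 higher, so the balance of the directions depends on the scaling. The calls of KMT2C, KMT2D, KDM5B and ING4 were kept in all 11 alternatives tried.

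**Figure D4:**
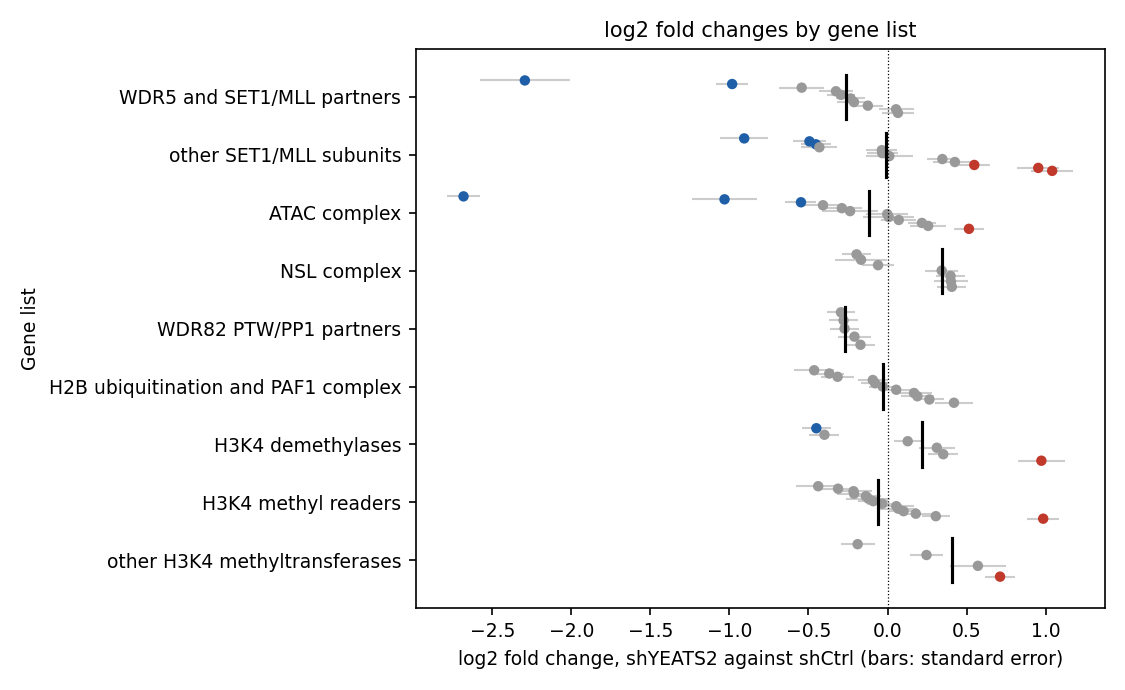
log2 fold changes of single genes (points, with bars of 1 standard error), grouped by list on the vertical axis. Blue points were called lower, red points higher and grey points were not called at an FDR under 0.01, and black lines are list medians. WDR5 at -2.29 and YEATS2 at -2.68 lie far from the other genes of their rows, and KMT2C and KMT2D lie near 1.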

How the data were processed

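RNA-seq of H1299 cells was examined in 2 shCtrl and 2 shYEATS2 libraries, grouped and numbered by their labels. The authors deposited whole-number read counts per gene, counted by HTSeq and mapped to hg19. The paper's methods name the RNA-Seq unified mapper, and the submitters' processing notes list TopHat2 2.0.10 and HTSeq 0.6.1p1 without saying for which assay. The deposited log2 fold changes, p-values and FDR values are the authors' own comparison and were not used.

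A minimum of 10 reads in 2 libraries was set, which all 12676 genes met. They were tested by the quasi-likelihood method of edgeR 4.0.16 in R 4.3.3, with TMM factors, Benjamini-Hochberg adjustment and the paper's FDR of 0.01. The standard error is the absolute log2 fold change divided by the root of F. Scaled counts are reads divided by the TMM library size relative to its mean over the 4 libraries. Total counts were 35572458 and 34718921 in shCtrl and 35665956 and 39417787 in shYEATS2 libraries. The paper calls the libraries biological replicates, and the p-values measure the spread between these 4 only. Alternatives were DESeq2 1.42.0, exactTest, other scalings and filters, a replicate block, and each library left out.

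The members and all gene lists were chosen with earlier results of these data known. Named genes were the 10 members, YEATS2, WDR5B, all further SET1/MLL and ATAC genes, in each other list up to 2 called genes in each direction with the largest change, and the 5 genes nearest to WDR5. Positions and transcripts came from GENCODE 44 lifted to GRCh37, which held 98.3% of the identifiers, and promoters from RefSeq (GRCh38.p14). Genes of low count can lose or share reads with near copies in such counting. Some marker genes are not reported here.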

Additional observations from a re-analysis of the deposited data

How the results depend on the processing

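Calls among the 10 genes chosen on this contrast are not given by alternative. YEATS2 kept its direction and call in all 11 alternatives, between -2.74 and -2.56. Over all genes, 3211 were called, against 5093 with exactTest, 4349 with DESeq2 and 5457 with the replicate block. Total counts turned the split of 1581 lower and 1630 higher into 1166 and 2363. In the lists around H3K4 methylation, 13 genes were called, against 20 with DESeq2, 22 with exactTest and 22 with the replicate block. With a library left out, where the lone sample of a group is assumed to vary like the other group, 1625 to 3995 of all genes and 5 to 13 of the lists were called. The lowest counts were 1625 of all genes without shCtrl replicate 1, 1801 without shCtrl replicate 2 and 2050 without shYEATS2 replicate 2, and in the lists 5, 5 and 6. The cause of these shifts was not tested. Samples of the same replicate number deviated together from their group means (correlation 0.40), but nothing ties the numbers to a shared culture, and with 2 pairs the numbers were not taken as a pairing. Of 374 single-gene values in alternatives, 333 kept their side of the threshold or moved by less than their error, 25 were lost, 4 were gained, 12 moved by more than their error, and none of the called ones changed direction. With 2 libraries a group, differences near the median standard error of 0.12 could not be resolved.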
